A study of Mus musculus with 4 samples.

Results

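The regions described here are the TLE3-bound regions listed in both white fat depots and not in brown fat. They were selected on the deposited peak lists, as regions present in the lists of epididymal white fat (eWAT) and inguinal white fat (iWAT) and absent from the list of brown fat (BAT). There were 23021 of them among the 69599 regions of the 3 lists, or 33.1%. They made up 45.1% of the 51015 eWAT regions and 45.6% of the 50456 iWAT regions. Of the 34055 regions shared by the white lists, 67.6% were white-only and the remaining 11034 were also in the BAT list, and these are called common regions below. "White-only" refers to the lists and does not mean that TLE3 reads were lacking in BAT.

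The study measured TLE3 binding by chromatin immunoprecipitation and sequencing (ChIP-seq) in primary mouse adipocytes. The tested libraries were 1 from eWAT and 1 from iWAT, and they were set against 1 from BAT, which the labels give as interscapular, cervical and axillary fat combined. A further library, an input without antibody, came from iWAT cells and served all 3 depots. All cells were stromal-vascular cells of male NMRI mice aged 4 to 5 weeks, with 10 to 15 animals pooled. Differentiation medium contained sodium ascorbate at 25 µg/ml, insulin at 30 nM and, at 1 µM, rosiglitazone, an agonist of the nuclear receptor PPARγ. Cells were fixed 8 days after plating, with 2 mM disuccinimidyl glutarate (DSG) for 15 min followed by 1% formaldehyde for 30 min, and cultures had to be over 50% differentiated. With 1 library per depot, a difference between depots cannot be told apart from a difference between libraries, and no p-value is given. RNA was not analysed here, so the adipocyte label could not be checked against marker expression, and a TLE3 region near a marker gene does not measure that gene's expression.

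TLE3 belongs to the Groucho family of transcriptional corepressors. These proteins do not bind DNA by themselves but are brought to it by sequence-specific factors, among them TCF/LEF factors of the Wnt pathway and HES factors of the Notch pathway. In mouse fat cells TLE3 is known as a partner of PPARγ in adipocyte differentiation and as an antagonist of PRDM16 in the brown fat program. PPARγ binds with RXR to paired AGGTCA elements, and C/EBP factors bind many of the same enhancers in adipocytes.

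Promoters with a white-only region at the start site are shown first, since their sequence could be read from RefSeq. In all, 192 white-only regions had their centre from 250 bases upstream to 50 bases downstream of a start site, near 191 genes. Of these genes 153 were in the RefSeq promoter table and 112 had exactly 1 promoter there. The sequences below run 5′ to 3′ from 250 bases before to 50 bases after the start and carry GRCm38.p6 coordinates, whereas region coordinates elsewhere are of mm9. The table's start site was not matched to the start site behind the deposited distance. Capitals mark matches on either strand to the AGGTCA element of nuclear receptors, to the TTGCNNAA pattern of C/EBP factors and to the TTGGCA element of NFI factors. They also mark the TGANTCA site of AP-1, the CTTTGAA site of TCF/LEF factors and the CACGTG sequence known as an E-box. The core promoter elements searched were the GC box, as GGGCGG, and the TATA box, as TATAAA. EBF sites were searched as TCCC followed after 2 bases by GGGA. The first 4 are those with the highest lower value of eWAT and iWAT among these 112 genes, and the last 3 are the first with a C/EBP match in the same order.

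Col6a5 promoter, GRCm38.p6 chr9:105960594-105960893, minus strand: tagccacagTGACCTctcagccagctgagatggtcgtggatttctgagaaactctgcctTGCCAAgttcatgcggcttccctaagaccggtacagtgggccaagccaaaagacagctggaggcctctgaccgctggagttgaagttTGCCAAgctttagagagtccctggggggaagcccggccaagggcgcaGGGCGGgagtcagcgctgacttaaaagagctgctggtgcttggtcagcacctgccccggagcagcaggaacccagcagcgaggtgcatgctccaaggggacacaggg
Aox1 promoter, GRCm38.p6 chr1:58029719-58030018, plus strand: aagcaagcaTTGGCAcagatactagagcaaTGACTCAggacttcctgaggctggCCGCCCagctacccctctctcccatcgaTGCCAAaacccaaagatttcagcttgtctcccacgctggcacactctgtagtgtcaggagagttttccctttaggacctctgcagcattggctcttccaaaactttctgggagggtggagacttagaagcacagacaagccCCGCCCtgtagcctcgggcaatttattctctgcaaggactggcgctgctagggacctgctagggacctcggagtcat
Olr1 promoter, GRCm38.p6 chr6:129507116-129507415, minus strand: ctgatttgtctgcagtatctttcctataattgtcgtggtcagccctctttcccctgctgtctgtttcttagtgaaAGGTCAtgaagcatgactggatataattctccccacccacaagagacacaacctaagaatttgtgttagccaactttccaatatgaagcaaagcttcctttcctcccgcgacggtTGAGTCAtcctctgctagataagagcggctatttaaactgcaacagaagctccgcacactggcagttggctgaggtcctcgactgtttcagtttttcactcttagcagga
Slc10a6 promoter, GRCm38.p6 chr5:103629354-103629653, minus strand: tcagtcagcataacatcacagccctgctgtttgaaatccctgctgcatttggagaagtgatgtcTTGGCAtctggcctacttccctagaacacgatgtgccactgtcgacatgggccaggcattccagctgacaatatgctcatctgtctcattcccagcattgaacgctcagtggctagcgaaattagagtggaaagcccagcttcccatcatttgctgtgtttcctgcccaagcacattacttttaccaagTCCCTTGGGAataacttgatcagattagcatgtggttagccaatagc
Pdss1 promoter, GRCm38.p6 chr2:22895272-22895571, plus strand: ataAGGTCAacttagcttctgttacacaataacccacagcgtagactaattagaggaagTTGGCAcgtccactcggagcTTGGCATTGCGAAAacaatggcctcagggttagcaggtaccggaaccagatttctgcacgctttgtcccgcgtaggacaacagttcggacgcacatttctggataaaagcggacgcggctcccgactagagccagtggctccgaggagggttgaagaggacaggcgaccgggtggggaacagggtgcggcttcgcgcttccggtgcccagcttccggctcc
Slc7a11 promoter, GRCm38.p6 chr3:50443564-50443863, minus strand: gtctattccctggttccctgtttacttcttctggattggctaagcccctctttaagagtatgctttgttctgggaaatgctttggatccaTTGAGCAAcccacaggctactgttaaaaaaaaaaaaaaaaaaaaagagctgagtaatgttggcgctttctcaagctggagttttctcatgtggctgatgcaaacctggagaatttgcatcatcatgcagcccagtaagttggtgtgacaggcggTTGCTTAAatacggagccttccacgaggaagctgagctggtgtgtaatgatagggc
4931408D14Rik promoter, GRCm38.p6 chr19:37264046-37264345, minus strand: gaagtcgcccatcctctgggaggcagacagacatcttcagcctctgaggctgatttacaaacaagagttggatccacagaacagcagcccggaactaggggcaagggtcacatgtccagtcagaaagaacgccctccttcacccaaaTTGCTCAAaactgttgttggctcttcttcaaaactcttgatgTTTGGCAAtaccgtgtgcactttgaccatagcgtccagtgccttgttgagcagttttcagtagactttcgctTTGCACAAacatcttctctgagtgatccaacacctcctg

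Values are reads in each region of 230 bp after the authors' scaling to one total per library, called scaled reads. A single read was worth 0.883 scaled reads for eWAT and 0.526 for iWAT, against 2.77 for BAT and 0.651 for the input, so BAT was the shallowest library. For a total of 10 M reads, which is assumed here and not given, this means 11.3 M reads for eWAT and 19.0 M for iWAT, whereas BAT comes to 3.62 M and the input to 15.4 M. The 3 reads compatible with a BAT value of 0 equal 8.30 scaled reads. All intervals cover counting error only.

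Col6a5, a collagen VI chain gene, showed 119 scaled reads in eWAT and 126 in iWAT, against 16.6 in BAT and 7.16 in the input, at the region over this promoter. Its promoter held 1 AGGTCA element and 2 TTGGCA elements. Aox1 encodes an aldehyde oxidase. Its region had 141 in eWAT and 117 in iWAT, against 27.6 in BAT and 9.76 in the input. Olr1, the receptor for oxidised low-density lipoprotein, had 177 in eWAT and 116 in iWAT, against 13.8 in BAT and 5.21 in the input. Both the Aox1 and the Olr1 promoter held a TGANTCA match. Slc10a6, a transporter of sulphated steroids, had 128 in eWAT and 114 in iWAT, against 16.6 in BAT and 7.81 in the input, and its promoter held the EBF match.

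The 3 promoters with C/EBP matches differed more in BAT than in the white libraries. Slc7a11, the cystine-glutamate exchanger, had 88.3 in eWAT and 72.0 in iWAT, against 38.7 in BAT and 3.90 in the input, and 2 matches. Pdss1, an enzyme of ubiquinone synthesis, had 108 in eWAT and 76.7 in iWAT, against 44.2 in BAT and 5.86 in the input. The transcript 4931408D14Rik had 69.8 in eWAT and 65.7 in iWAT, against 2.77 (1 read) in BAT and 3.90 in the input, and 3 matches, one of which overlapped a TTGGCA match. In all 3 promoters the BAT value was below both white values, which the list limits given below require of every white-only region.

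Among the 112 promoters, 34 (30.4%, 95% Wilson interval 22.6 to 39.4) held a TTGCNNAA match, against 31.0% of 42 promoters with a common region at the start site and 10.8% of all 22862 promoters in the table. The difference from all promoters was 19.5 percentage points (95% Newcombe interval 11.8 to 28.6), and that from common-region promoters was -0.60 (-17.5 to 14.3). The C/EBP element was thus found at white-only and common promoters in shares whose difference was not resolved at this number. AGGTCA stood in 23.2% of white-only promoters, 28.6% of common ones and 16.0% of all promoters. TGANTCA stood in 16.1%, 28.6% and 7.98% in the same order. The largest gap to the common promoters was at TTGGCA, with 25.0% of white-only promoters, 50.0% of common ones and 14.5% of all. The difference from the common ones was -25.0 points (-41.1 to -8.08). It was picked as the largest of 11 such differences, and their intervals were not widened for that number. EBF sites stood in 3.57%, 4.76% and 0.884%. TATAAA stood in 25.0%, 19.0% and 14.8%, and GGGCGG in 28.6%, 35.7% and 35.2%. CTTTGAA, the element of the TCF/LEF factors that bring Groucho proteins to Wnt targets, stood in 4.46% of white-only promoters, 7.14% of common ones and 5.31% of all. CACGTG stood in 8.04%, 2.38% and 7.12%. A pair of AGGTCA elements 1 base apart and the full NFI palindrome were each in 0 of the 112 promoters, which allows a share of up to 2.68%, against 0.0525% and 0.0306% of all promoters. These matches describe letters in this window and do not show that a factor was bound.

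**Figure D1:**
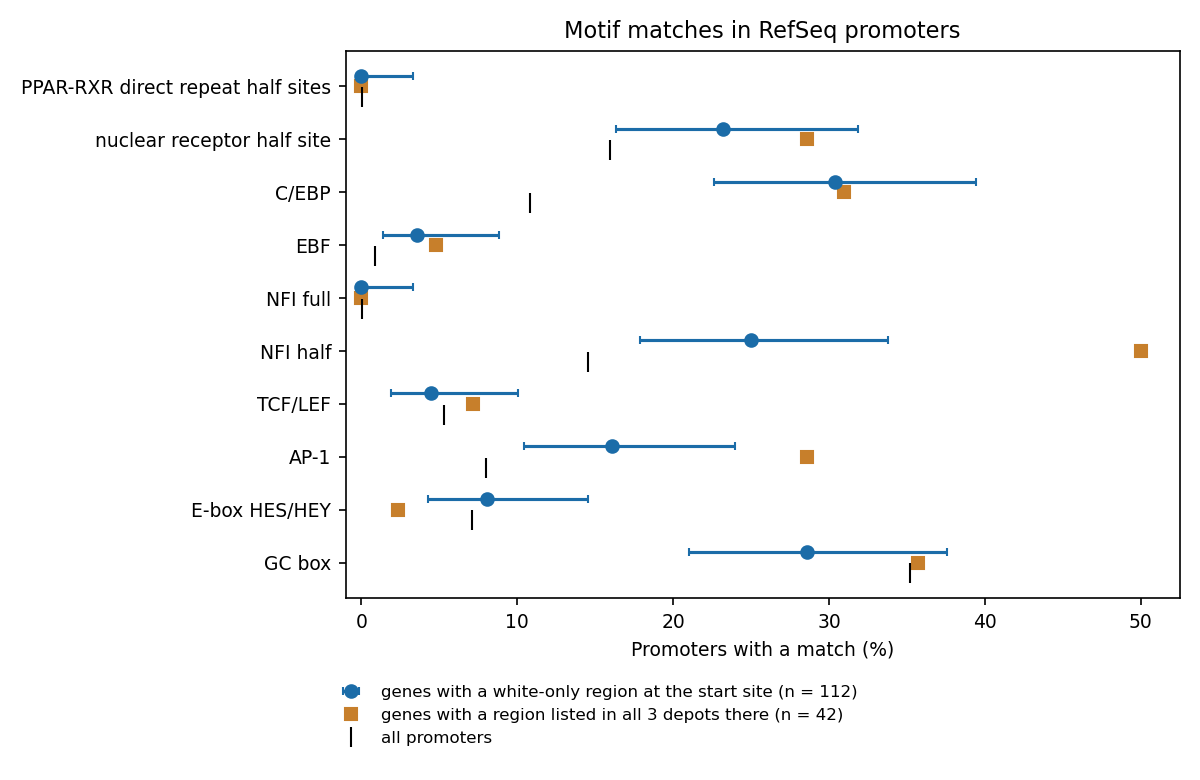
Share of RefSeq promoters (x axis, percent) with a match to each of 10 elements (y axis), for genes with a white-only region at the start site (circles, 95% Wilson intervals, n = 112), genes with a common region there (squares, n = 42) and all promoters (ticks). C/EBP matches stood at 30.4% of white-only promoters, beside 31.0% of common ones and 10.8% of all, while NFI matches stood at 25.0% of white-only promoters and 50.0% of common ones.

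White-only regions had a median of 37.1 scaled reads in eWAT (42 reads) and 36.8 in iWAT (70 reads), against 8.30 in BAT (3 reads) and 1.30 in the input. The middle part of them, between the quartiles, spanned 24.7 to 58.3 in eWAT, 24.2 to 57.8 in iWAT and 2.77 to 13.8 in BAT. Summed over all white-only regions, the reads came to 25.7 times the input in eWAT and 25.0 times in iWAT, against 5.55 times in BAT. The white-only regions thus held BAT reads above the iWAT input as a group, and regions listed in eWAT alone or iWAT alone had lower BAT sums, of 3.37 and 3.88 times the input. At common regions the same ratios were 39.4 in eWAT and 37.4 in iWAT, against 24.0 in BAT. These values chose the classes and are given as a description.

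The lists started at 15 scaled reads in the listed library and at 10 times the input, limits that were read from the values. In BAT the lowest listed value was 16.59, or 6 reads. Of the white-only regions 18890 (82.1%) lay under that value in BAT, and 13713 (59.6%) had at most 3 BAT reads. Of those 18890 regions, 13055 were also under 10 times the input in BAT and 5835 were not. Exactly 0 BAT reads were found at 2892 (12.6%), against 37.4% of the regions listed in eWAT alone and 30.5% of those listed in iWAT alone. The other 4131 white-only regions (17.9%, 17.5 to 18.4) had a BAT value high enough for the list but under 10 times the input. Their medians were 71.5 for eWAT and 67.8 for iWAT, against 22.1 for BAT, and their median input of 3.90 was 3 times the 1.30 of all white-only regions. They were the stronger part of the class in the white libraries as well. A BAT value of at least 16.59 but under 10 times the input requires a raised input. The white values in turn had to reach 10 times that input, so both traits follow at least in part from the split. The input that held these regions off the BAT list was made from iWAT cells.

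**Figure D2:**
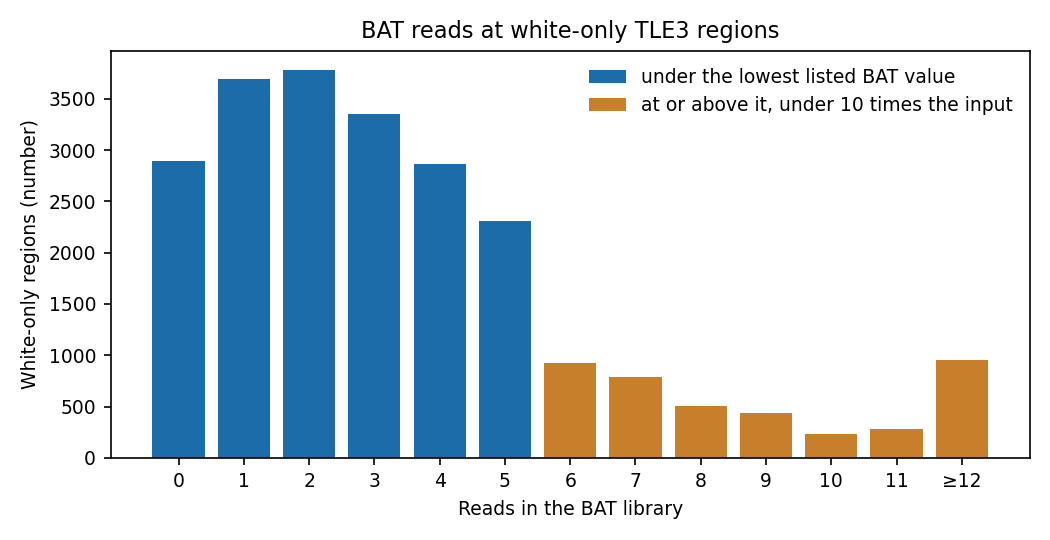
Number of white-only regions (y axis) by reads in the BAT library (x axis, the last bar holding 12 or more). The 2892 regions with 0 reads and the others under 6 reads lay below the lowest listed BAT value, and the 4131 regions with 6 reads or more were under 10 times the input.

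The members nearest to each limit show how narrow the line was. At the eWAT limit, the region near Zfp451 with 15.0 scaled reads in eWAT (17 reads) was a member, and one near Slco5a1 with 14.1 (16 reads) was not. At the iWAT limit, a region near Gsta3 with 15.2 (29 reads) was inside and one near Ncoa2 with 14.7 (28 reads) outside. At the BAT value limit, a region near Sulf1 with 13.8 (5 reads) was white-only and one near Pcmtd1 with 16.59 (6 reads) was common. A difference of 1 read therefore set the class in each of these pairs. At the BAT input limit, a region near Tmem182 with 19.4 in BAT and 1.95 in the input was white-only, and one near Hspa4 with 91.2 in BAT and 9.11 in the input was common.

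The share of shared white regions that were white-only fell with their strength in the white libraries. Among regions whose lower white value was 15 to 20 scaled reads, 85.8% were white-only, and the share was 78.6%, 69.7%, 61.0%, 50.4% and 38.5% in the following steps up to 120. At 120 or more it was 24.0% (313 of 1304 regions). Over the same steps the median BAT value of white-only regions climbed through 5.53, 5.53, 8.30, 11.1, 16.6 and 24.9 to 38.7. White-only regions at 120 or more had a median input of 5.86, against 3.90 at common regions of that strength, and 89.1% of them had a BAT value at or above the lowest listed one. In the weakest step that share was 0.228%. Strong white-only regions thus mostly reached the lowest listed BAT value and missed only the input limit. Weak ones nearly all lay under that BAT value, whether or not they missed the input limit as well. At or above that BAT value only the input limit could keep a region off the BAT list. The lists used the same white, BAT and input values, so these shares and medians are a description.

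**Figure D3:**
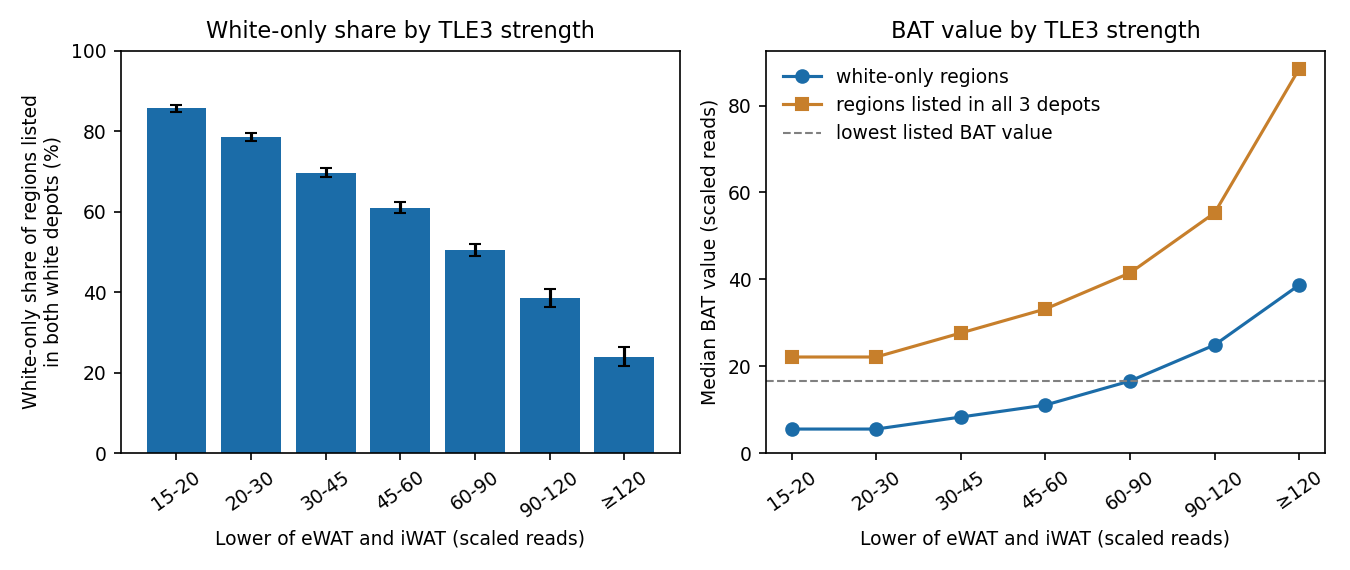
Left, share of regions listed in both white depots that were white-only (y axis, percent, 95% Wilson intervals) by the lower of the eWAT and iWAT values (x axis, scaled reads). Right, median BAT value (y axis, scaled reads) of white-only regions (circles) and common regions (squares) over the same steps, with the lowest listed BAT value dashed. The white-only share was 85.8% at 15 to 20 scaled reads and 24.0% at 120 or more.

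The log2 ratio of the mean of both white values over BAT, with 1 read added to each library's value, had a median of 1.93 at white-only regions on the authors' scale. Set against the median of 0.65 at common regions it was 1.28, and set against the median of 1.35 over the strongest 25% of all regions it was 0.58. The common regions were themselves chosen by their BAT reads, so neither centre is free of the lists. White-only regions at least 4-fold above the common-region ratio numbered 5609 (24.4%), against a background of 14.9% of all 69599 regions. On the authors' own scale 10821 passed that fold and with the strongest 25% as the centre 1970 did. The class was chosen on the same contrast, so these counts describe it.

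The white libraries differed little from each other at white-only regions, which had to be listed in both. The median log2 ratio of eWAT over iWAT was 0.07, and the Spearman correlation across these regions was 0.60, beside 0.74 at common regions. These correlations are across regions of 1 library each. White-only regions at least 2-fold higher in eWAT than in iWAT, relative to common regions, numbered 1112 (4.83%), against a background of 16.4% of all regions. Those at least 2-fold higher in iWAT numbered 2369 (10.3%), against a background of 23.9%. The rule fixed a lower limit in both white libraries and so kept these shares small.

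The strongest white-only region by its lower white value lay in an intron 22.0 kb from the start of Fermt2, which encodes the integrin activator kindlin-2, at chr14:46127635-46127865. It held 285 scaled reads from eWAT and 242 from iWAT, against 49.8 (18 reads) in BAT and 13.7 in the input. Next came an intronic region of Jazf1, a zinc finger protein gene, at chr6:52767002-52767232, with 219 in eWAT and 215 in iWAT, against 33.2 in BAT and 4.56 in the input. The 12 strongest regions also lay near Col6a2, a collagen VI chain gene, near Galk2, a kinase of N-acetylgalactosamine, and near Tomm20, a receptor of mitochondrial protein import. All 12 had more BAT reads than the lowest listed BAT region and were under 10 times the input. The region near Tomm20, 93.6 kb from its start, had 204 in eWAT and 189 in iWAT, against 77.4 in BAT (28 reads) and 9.11 in the input.

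The strongest regions without a BAT read were chosen for that count and for their white values, so their separation of the libraries is a description. At a region near Pcdh9, a protocadherin gene, at chr14:92977840-92978070, the values were 155 (176 reads) in eWAT and 160.3 (305 reads) in iWAT, against 0 in BAT and 1.95 in the input. The white mean was at least 19.0-fold higher than the 3 reads that a BAT count of 0 allows. This region lay 1310 kb from the nearest start site, so the gene name marks a position. Adipoq encodes adiponectin, a hormone secreted by adipocytes. A region 13.4 kb downstream of its start, at chr16:23159861-23160091, had 105 in eWAT and 112 in iWAT, against 0 in BAT and 2.60 in the input, and was at least 13.1-fold higher in the white mean than those 3 reads. Of the 7 regions assigned to Adipoq within 50 kb, 3 were white-only and 1 was in the BAT list. A region 2.46 kb upstream of Akr1c18, a hydroxysteroid dehydrogenase that inactivates progesterone, had 109.5 (124 reads) in eWAT and 117 in iWAT, against 0 in BAT and 3.90 in the input. At Ly86, which encodes a partner of the Toll-like receptor homologue RP105, a region 147 kb from the start had 185 in eWAT and 96.7 in iWAT, against 0 in BAT. Among the 8 regions of this kind Ly86 stood out by its eWAT value, and the other 7 had eWAT and iWAT values whose counting intervals overlapped.

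Within 1 kb of a start site, the resistin gene Retn, which mouse white adipocytes express as a hormone, had a white-only region at chr8:3654882-3655112, 0.773 kb upstream. It had 133 in eWAT and 134 in iWAT, against 19.4 (7 reads) in BAT and 2.60 in the input, which is 6.90-fold for the white mean over BAT, with an interval of 3.35 to 17.2 from the BAT reads alone. Hp, which encodes the haemoglobin-binding plasma protein haptoglobin, had a region 0.059 kb upstream of its start with 168 in eWAT and 128 in iWAT, against 58.1 in BAT and 9.11 in the input. Elmod2, a GTPase-activating protein for ARF-family GTPases, had 156 in eWAT and 142 in iWAT, against 52.5 in BAT and 10.4 in the input. Gas7, a cytoskeletal adaptor, had 124 in eWAT and 121 in iWAT, against 22.1 in BAT and 2.60 in the input. At the 8 strongest promoter-near regions the BAT values ranged from 16.6 at Col6a5 to 74.7 at Gm19705. Both white values exceeded BAT there, as the list limits require at every white-only region.

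**Figure D4:**
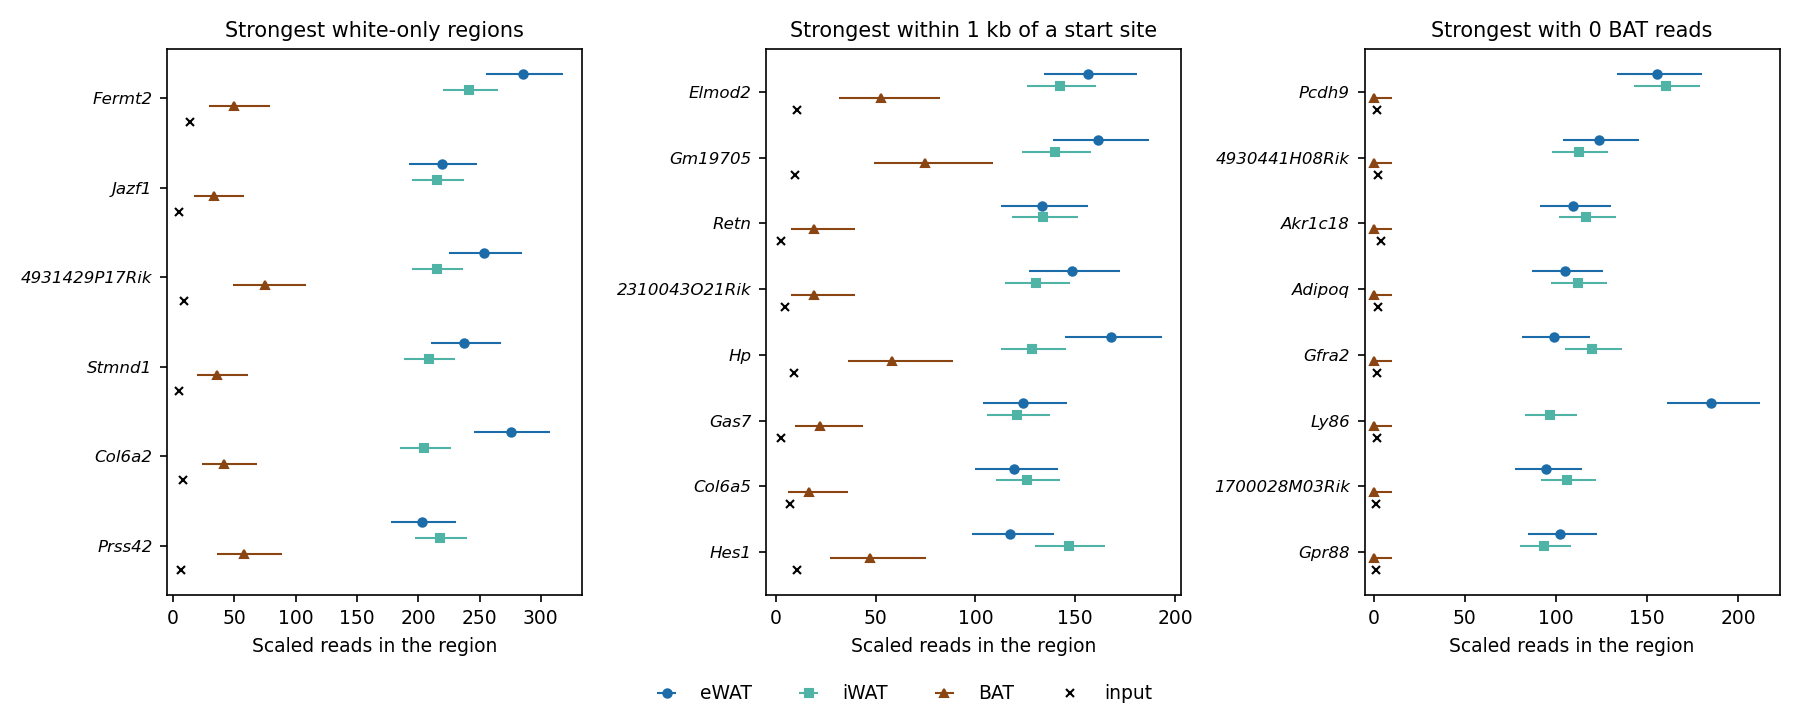
Scaled reads (x axis) in eWAT (circles), iWAT (squares), BAT (triangles) and input (crosses) at the 6 strongest white-only regions, the 8 strongest within 1 kb of a start site and the 8 strongest with 0 BAT reads, each named by its nearest gene. Bars are 95% Poisson intervals of the reads. Both white values lay above BAT at every region drawn, which the list limits fix for this class. BAT reached 74.7 at 4931429P17Rik and at Gm19705.

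Within the class, the strongest leanings between the white depots ran in both directions. A region annotated as intronic, at chr8:117793678-117793908, held 199.6 scaled reads from eWAT and 20.5 from iWAT, against 11.1 in BAT, a log2 ratio of eWAT over iWAT of 3.28 (2.79 to 3.81). Its nearest start site, that of the basic leucine zipper factor gene Maf, was 437 kb away and the intron belongs to a transcript of Wwox, so Maf marks a position. A region 19.4 kb upstream of Tiam1, an activator of the GTPase Rac, had 161 in eWAT and 19.97 in iWAT, against 13.8 in BAT. An intronic region of Clic5, a chloride intracellular channel gene, had 125 in eWAT and 18.4 in iWAT, against 2.77 in BAT. The 5 regions at this end stood just above the iWAT limit, and BAT was below iWAT in all 5, as the list limits require. On the other side, a region near Runx1t1, which encodes the corepressor ETO, at chr4:13396525-13396755, had 15.0 in eWAT and 132 in iWAT, against 2.77 in BAT, a log2 ratio of -3.14 (-3.94 to -2.43). A region near Lrrc55, a potassium channel subunit gene, had 15.9 in eWAT and 132 in iWAT, against 13.8 in BAT. In all 10 regions named for this ratio the lower white value was under 21 scaled reads.

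By the deposited annotation, 11262 white-only regions (48.9%, 48.3 to 49.6) were intergenic and 10631 (46.2%, 45.5 to 46.8) intronic. Intron 1 held 34.5% of the intronic ones. Promoters held 497 (2.16%), transcription termination sites 0.990%, 3′ UTRs 0.812%, coding exons 0.595% and 5′ UTRs 0.104%. Most binding in this class therefore lay away from promoters. The median distance to the nearest start site was 36.8 kb (quartiles 12.6 and 96.4 kb), and 24.2% lay over 100 kb away. At common regions the median distance was 38.0 kb, at regions of eWAT alone 31.0 kb, of iWAT alone 53.6 kb and of BAT alone 28.2 kb.

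Within 1 kb of a start site lay 718 white-only regions (3.12%, 2.90 to 3.35), against 8.61% of the regions of BAT alone, a difference of -5.49 percentage points (-6.76 to -4.36). Against the iWAT-alone regions the difference was 1.37 points (1.06 to 1.68), and against the eWAT-alone regions it was -0.35 (-0.71 to 0.01). The difference from common regions was 0.41 points (0.02 to 0.78) and did not keep its sign over the steps of strength. It was -1.19 points (-2.71 to -0.04) at 15 to 20 scaled reads and 2.31 points (0.84 to 4.08) at 90 to 120. In all, 205 such differences between classes were computed, and their intervals were not widened for that number.

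Repeats were annotated at 3907 white-only regions (17.0%, 16.5 to 17.5), with 5.46% in long terminal repeats, 5.40% in LINEs and 3.04% in SINEs. The share exceeded that of common regions by 1.18 points (0.34 to 2.01), but the sign depended on strength. At 15 to 20 scaled reads white-only regions were 3.78 points (0.98 to 6.32) above common regions, and at 60 to 90 they were 4.02 points below (a difference of -4.02, -6.08 to -1.96). Against regions of BAT alone the repeat share was lower by 5.15 points (a difference of -5.15, -7.01 to -3.39). The repeat element named most often was the LINE fragment Lx8, at 120 regions (0.521%). It was named at 0.326% of common regions. The shares of regions of eWAT alone (0.502%), iWAT alone (0.513%) and BAT alone (0.504%) were close to that of white-only regions. URR1A, a DNA transposon, was named at 87 white-only regions (0.378%), against 0.136% of common regions, 0.143% of those of eWAT alone and 0.545% of those of iWAT alone. The related URR1B was named at 98 (0.426%), close to the 0.435% of common regions. Both together came to 0.804%, against 0.571% of common regions, 0.291% of those of eWAT alone and 1.08% of those of iWAT alone. Simple repeats stood at 0.109%, against 0.372% of common regions and 2.70% of those of BAT alone.

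White-only regions stood near BAT-listed regions more often than regions of a single white depot did. A BAT-listed region lay within 10 kb of 5295 of them (23.0%, 22.5 to 23.5), which was 5.21 points (4.40 to 6.008) more than for regions of eWAT alone and 5.73 points (4.92 to 6.53) more than for regions of iWAT alone. Another white-only region lay within 10 kb of 36.0%. A white-only region lay that near to 36.4% of common regions, 28.5% of those of eWAT alone and 29.0% of those of iWAT alone. The difference from common regions was -0.34 points (-1.43 to 0.75). Only 18 white-only regions overlapped a BAT-listed region by a base or more.

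On chromosome X, 566 of 775 shared white regions were white-only (73.0%, 69.8 to 76.0), against 67.5% on the autosomes, a difference of 5.56 points (2.29 to 8.60). The mice were male and carry 1 X chromosome. Shared white regions on X were weaker, with a median lower white value of 26.5 scaled reads against 34.4 on the autosomes, and the part of this in the share was not tested. Their medians were 31.8 in eWAT and 31.5 in iWAT, against 8.30 in BAT and 0.650 in the input, where autosomal ones had 43.3 in eWAT and 42.6 in iWAT, against 13.8 in BAT and 1.30 in the input. Among the autosomes the share ran between 64.1% on chromosome 12 and 70.2% on chromosome 3.

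Within 50 kb of a start site lay 13404 white-only regions, near 7634 genes. That was 57.1% of the 13381 genes with any TLE3 region by this rule, which gives a region only to its nearest gene. A single white-only region was found at 4452 of these genes (58.3%), and 305 had 5 or more. At 3247 genes (42.5%) a BAT-listed region stood within 50 kb as well, so a white-only region often marked a gene that TLE3 also bound in BAT. At 1890 genes all regions were white-only.

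Pparg, the master regulator of fat cell differentiation and the target of rosiglitazone, was among the 8 genes with the most white-only regions. Of its 23 regions 10 were white-only and 7 were in the BAT list. The strongest of the 10, intronic at chr6:115412903-115413133, had 104 in eWAT and 105 in iWAT, against 24.9 in BAT and 4.56 in the input. The most were at Lpp, a LIM protein of focal adhesions, with 11 of 19 regions. Esr1, the oestrogen receptor α, had 9 of 16, and only 1 of its regions was BAT-listed. Its strongest white-only region had 165 in eWAT and 84.6 in iWAT, against 8.30 in BAT and 4.56 in the input. Fstl1, a secreted follistatin-like protein, had 9 of 19, and the scaffold gene Nedd9 had 10 of 34.

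Several genes held many white-only regions and no BAT-listed region. Rbms1, an RNA-binding protein gene, had 9 white-only regions of 14. All 8 regions at Nfkb1, which encodes the p105 and p50 subunits of NF-κB, were white-only, with means of 53.5 in eWAT and 56.1 in iWAT, against 10.4 in BAT and 2.28 in the input. Igfbp7, a secreted IGF-binding protein gene, had 8 of 10, with means of 68.3 in eWAT and 47.6 in iWAT, against 11.4 in BAT. C1qtnf7, a secreted relative of adiponectin, had 8 of 17. Insig2, which retains the sterol sensor complex in the endoplasmic reticulum, had 7 of 10, the strongest with 70.6 in eWAT and 72.0 in iWAT, against 30.4 (11 reads) in BAT and 3.25 in the input. Loxl2, a collagen crosslinking enzyme gene, had 7 of 9. A gene without a BAT-listed region could thus still hold BAT reads above the listed minimum.

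A white-only region lay within 50 kb of 29.4% of the 21896 RefSeq protein-coding genes, the background for the following counts. A TLE3 region of any class lay that near to 51.6% of them, and of all regions within 50 kb of a gene 33.8% were white-only. Of 23 gene lists, 19 had a share of genes with a white-only region above the background of 29.4%. The lists were drawn up with earlier results of these data known, so their counts are a description. Of the adipocyte identity genes 19 of 26 (73.1%, 53.9 to 86.3) had a white-only region, and 15 of these 19 also had a BAT-listed one. Any TLE3 region stood at 25 of the 26 genes, and 40 of their 125 regions were white-only, a share close to the 33.8% over all genes. Lpl, the lipase that takes up circulating fat, had 5 of 12, whereas Lep, the leptin gene, had none of its 3 regions in the class and Plin1, which coats lipid droplets, none of 1. Cd36, a fatty acid transporter, had 1 of 15, with 8 of its regions in the BAT list.

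Among genes of lipid synthesis 17 of 22 (77.3%) had a white-only region and 20 had a TLE3 region of any class. White-only regions were 34 of their 93 (36.6%, 27.5 to 46.7), near the 33.8% over all genes. Fasn, the fatty acid synthase, had 2 regions in all and both were white-only. The stronger one, at chr11:120692139-120692369, had 198 in eWAT and 107 in iWAT, against 49.8 (18 reads) in BAT and 5.21 in the input. Gpam, which starts triglyceride assembly, had 7 white-only regions of 13, the strongest with 96.2 in eWAT and 79.4 in iWAT, against 30.4 in BAT and 3.25 in the input. Acsl1 activates long-chain fatty acids. A region 44.6 kb upstream of it had 117 in eWAT and 95.6 in iWAT, against 52.5 in BAT and 6.51 in the input.

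Brown thermogenic genes had the highest share of BAT-listed regions among the 23 lists. Of 26 genes 11 (42.3%, 25.5 to 61.1) had a white-only region, and of their 77 regions 17 (22.1%, 14.3 to 32.5) were white-only and 35 (45.5%) were BAT-listed. Over all genes 33.8% of the regions within 50 kb were white-only and 22.0% BAT-listed. The adipocyte identity list came next in BAT-listed regions, with 50 of 125 (40.0%), so a high share was not particular to brown genes. Ucp1, the uncoupling protein of thermogenesis, had a white-only region 11.7 kb upstream, at chr8:85802477-85802707. It had 147 in eWAT and 117 in iWAT, against 58.1 (21 reads) in BAT and 7.16 in the input, so that the BAT value was under 10 times the input. Nfia, which encodes a nuclear factor I protein that promotes brown adipocyte differentiation, had an intronic one with 114 in eWAT and 105 in iWAT, against 27.6 in BAT and 4.56 in the input. Lhx8, a LIM homeobox gene used as a marker of brown fat, had 2 regions, both white-only, the stronger with 84.8 in eWAT and 78.3 in iWAT, against 13.8 in BAT and 0.650 in the input. Cidea, Dio2 and Ppargc1b had no white-only region. The BAT-listed regions at each of them were all common regions, so they were listed in both white depots too. Zic1 and Kcnk3 had 1 region each, BAT-listed and not common. In contrast, the 1 region of Cox7a1 was white-only, and Elovl3 and Gk each had 1 white-only region of 3 and no BAT-listed one.

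Of 19 white-selective genes 12 (63.2%) had a white-only region and 18 had a TLE3 region of any class. White-only regions were 24 of their 74 (32.4%), near the 33.8% over all genes. Igfbp3, an IGF-binding protein gene, had 4 of 6 and no BAT-listed region, the strongest with 85.7 in eWAT and 88.3 in iWAT, against 11.1 (4 reads) in BAT and 1.30 in the input. The dermatopontin gene Dpt had 1 of 8, with 149 in eWAT and 116 in iWAT, against 27.6 in BAT and 9.11 in the input, beside 5 BAT-listed regions. Among adipogenic transcription factors 20 of 31 (64.5%) had a white-only region and 29 had a TLE3 region of any class. White-only regions were 39 of their 126 (31.0%). Rxra, the partner of PPARγ, had 3 of 6 and no BAT-listed region, the strongest with 109 in eWAT and 69.4 in iWAT, against 22.1 in BAT and 5.21 in the input. At Creb1, a cAMP-responsive factor that acts early in adipogenesis, 3 of 4 regions were white-only, the strongest with 68.0 in eWAT and 56.8 in iWAT, against 5.53 (2 reads) in BAT. Of the depot-developmental genes 14 of 29 (48.3%) had one, and 17 of their 71 regions (23.9%) were white-only. Tbx15, a T-box factor of the body axis, had 1 of 10, with 5 BAT-listed.

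The Wnt and Notch pathways are known to use Groucho proteins. The white-only shares of the regions at their genes were not resolved from the 33.8% over all genes. Of 38 Wnt pathway genes 22 (57.9%, 42.2 to 72.1) had a white-only region and 30 had a TLE3 region of any class. White-only regions were 55 of their 146 (37.7%, 30.2 to 45.8). The ligand gene Wnt5a had 2 of 3 and no BAT-listed region, the stronger with 77.7 in eWAT and 84.1 in iWAT, against 5.53 (2 reads) in BAT and 5.86 in the input. At that region the BAT value did not exceed the input. Dkk3, a Dickkopf family gene, had 4 of 8, the strongest with 136 in eWAT and 125 in iWAT, against 38.7 in BAT and 3.90 in the input. Tcf7l2, a factor that recruits Groucho proteins when Wnt signalling is off, had 4 of 15. Of 20 Notch pathway genes 10 (50.0%, 29.9 to 70.1) had a white-only region and 14 had a TLE3 region of any class. White-only regions were 25 of their 64 (39.1%, 28.1 to 51.3). The ligand gene Jag1 had 5 of 10, the strongest with 64.5 in eWAT and 70.9 in iWAT, against 19.4 in BAT and 3.25 in the input. Hes1, whose protein binds Groucho proteins, had 3 of 5, among them one 0.144 kb upstream of its start with 117 in eWAT and 147 in iWAT, against 47.0 in BAT and 10.4 in the input. Rbpj, the DNA-binding partner of Notch, had 2 of 8.

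Groucho and corepressor genes had a white-only region at 12 of 21 (57.1%) and a TLE3 region of any class at 17. White-only regions were 20 of their 67 (29.9%). Tle3 itself had 5 of 14, with 5 of the 14 in the BAT list. The strongest of the 5, intronic at chr9:61226268-61226498, had 171 in eWAT and 87.2 in iWAT, against 41.5 in BAT and 4.56 in the input. Tle1, a paralogue, had 2 of 4, the stronger with 155 in eWAT and 98.8 in iWAT, against 49.8 in BAT and 7.81 in the input. Hdac4, a class II histone deacetylase gene, had 2 of 3.

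In genes of insulin action and glucose use 24 of 37 (64.9%) had a white-only region and 35 had a TLE3 region of any class. White-only regions were 64 of their 181 (35.4%), near the 33.8% over all genes. Igf1, the insulin-like growth factor, had 7 of 15, the strongest with 81.2 in eWAT and 82.5 in iWAT, against 5.53 (2 reads) in BAT and 0.650 in the input. Tbc1d4, which controls the movement of the glucose transporter GLUT4, had 2 of 3, the stronger with 122 in eWAT and 100.4 in iWAT, against 11.1 in BAT and 2.60 in the input. Hk2, a hexokinase gene, had 6 of 11. Of adrenergic and cAMP genes 19 of 31 (61.3%) had a white-only region and 29 had a TLE3 region of any class. White-only regions were 44 of their 150 (29.3%). Pde4b, a phosphodiesterase that breaks down cAMP, had 2 of 16 with 7 BAT-listed, the stronger with 171 in eWAT and 94.6 in iWAT, against 35.9 in BAT and 5.86 in the input.

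Genes of the matrix, of vessels and of TGF-β signalling were among the lists with the highest counts. Nearly all of them had a TLE3 region of some class, at 32 of 33 TGF-β and BMP genes, 27 of 28 fibroblast and progenitor genes and 20 of 22 angiogenic genes. White-only regions made up 31.9%, 35.9% and 33.6% of the regions of these 3 lists in that order, near the 33.8% over all genes, so the counts of genes went with having any TLE3 region. In TGF-β and BMP signalling 25 of 33 genes (75.8%) had a white-only region. The signal transducer Smad3 had 1 of 7, with 80.4 in eWAT and 101 in iWAT, against 8.30 (3 reads) in BAT and 2.60 in the input. Ltbp1, which stores latent TGF-β in the matrix, had 4 of 14. Of fibroblast and progenitor genes 20 of 28 (71.4%) had one. Pcolce2, an enhancer of procollagen processing, had an intronic region 1.74 kb from its start, at chr9:95539673-95539903, with 118 in eWAT and 169.7 (323 reads) in iWAT, against 11.1 (4 reads) in BAT and 1.95 in the input. Fbn1, the fibrillin of elastic fibres, had 3 of 12 and Fap, a surface protease of fibroblasts, 4 of 7, and neither had a BAT-listed region. Of angiogenic genes 17 of 22 (77.3%) had one. Fgf2, a fibroblast growth factor gene, had 5 of 11, the strongest with 111 in eWAT and 164 in iWAT, against 11.1 in BAT and 4.56 in the input. Kdr, a receptor for vascular endothelial growth factor, had 2 of 5, the stronger with 180.1 in eWAT and 131 in iWAT, against 38.7 in BAT and 5.21 in the input.

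Lists of mitochondrial genes lay close to the background of 29.4% in the share of genes with a white-only region. A TLE3 region of any class stood at 24 of 48 oxidative phosphorylation, 15 of 24 biogenesis and 17 of 26 fatty acid oxidation genes. White-only regions were 27 of 69 (39.1%, 28.5 to 50.9), 11 of 35 (31.4%) and 13 of 36 (36.1%) of their regions in that order. Over all genes this share was 33.8%. Nuclear oxidative phosphorylation genes had a white-only region at 15 of 48 (31.3%, 19.9 to 45.3), mitochondrial biogenesis genes at 8 of 24 (33.3%) and fatty acid oxidation genes at 9 of 26 (34.6%). Uqcrc1, a complex III subunit gene, had a single region, 10.6 kb upstream at chr9:108827991-108828221, with 129.8 (147 reads) in eWAT and 108 in iWAT, against 2.77 (1 read) in BAT and 2.60 in the input. Timm23, the channel of the inner membrane import machinery, had an intronic region with 122 in eWAT and 72.0 in iWAT, against 0 in BAT and 0 in the input. The BAT value of both regions was within the 3 reads that a count of 0 allows. Cpt2, a carnitine palmitoyltransferase of the inner membrane, had a region 0.274 kb upstream with 45.9 in eWAT and 48.4 in iWAT, against 11.1 in BAT and 0.650 in the input.

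Lists of other cell types were at or near the background, with mesothelial genes at 6 of 15 (40.0%), neuronal genes at 5 of 15 (33.3%), endothelial, skeletal muscle and macrophage genes at 4 of 15 each (26.7%) and hepatocyte genes at 3 of 15. With so few genes each interval reached to both sides of 29.4%. Krt7, a keratin of mesothelium, had 1 region, with 180.1 in eWAT and 120.3 in iWAT, against 22.1 in BAT and 3.90 in the input. Wt1, a factor of mesothelium and visceral fat, had 1 white-only region of 7, with 45.04 in eWAT and 40.5 in iWAT, against 0 in BAT and 0 in the input. Of the 26 regions of the macrophage list 1 was BAT-listed (3.85%) and 5 were white-only (19.2%). Over all genes these shares were 22.0% and 33.8%. BAT-listed regions were also few in the hepatocyte list (2 of 17) and the mesothelial list (4 of 29).

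**Figure D5:**
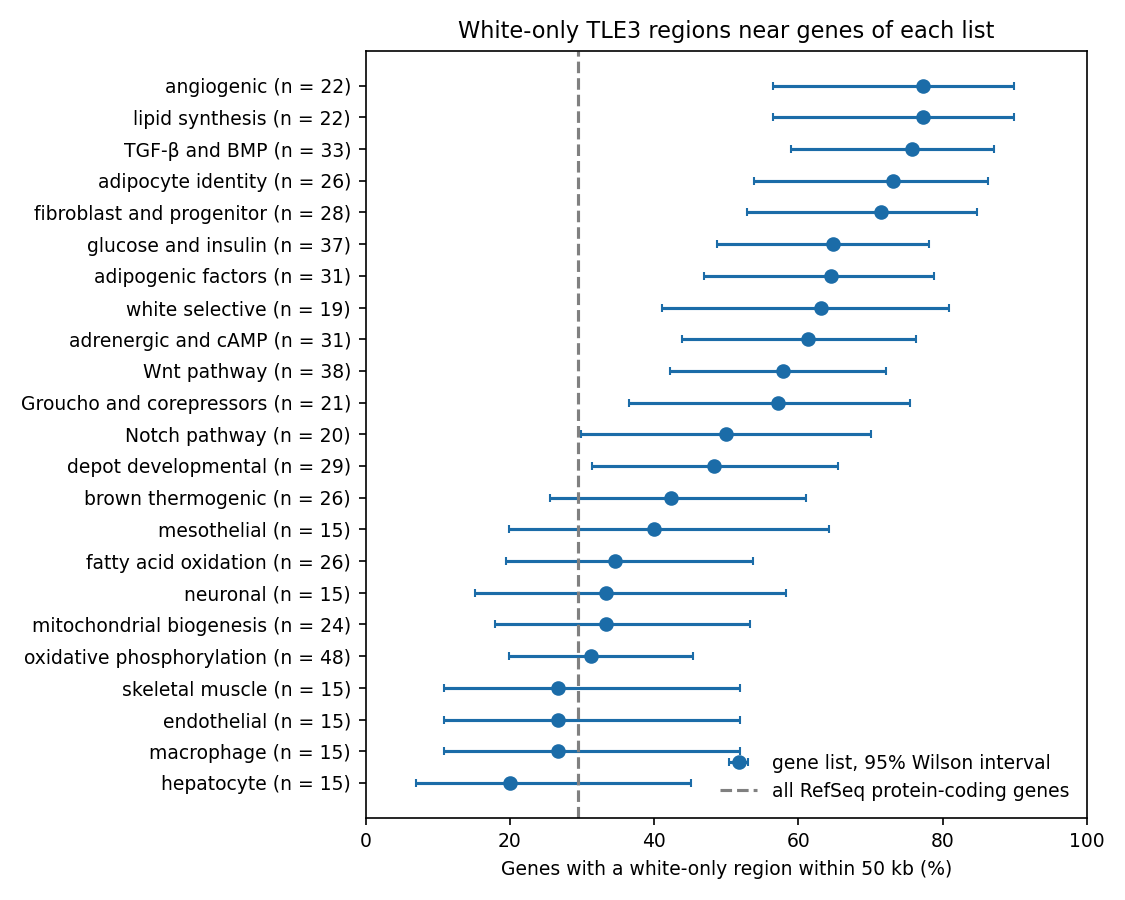
Share of genes with a white-only region within 50 kb of the start site (x axis, percent, 95% Wilson intervals) for 23 gene lists (y axis, number of genes in parentheses), with the share of all RefSeq protein-coding genes, 29.4%, as a dashed line. Angiogenic and lipid synthesis genes stood highest at 77.3%, and hepatocyte genes, 3 of 15, lowest.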

How the data were processed

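TLE3 ChIP-seq was measured in adipocyte cultures of 3 fat depots, with 1 library per depot and 1 input. The submitters' processing notes list STAR, HOMER and mm9, without versions or roles. The peak caller's settings are not given in the sources used here. The deposited tables hold, per the file headers, one signal value per region and library, reads scaled by the authors to one total. They also hold a deposited peak score, which was 0 in every line and was not used, and the distance to the nearest start site, used as deposited. No per-sample column was left unused.

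The tables were joined on region identifiers with pandas 2.3.3 (python 3.11.15). Reads were recovered by dividing by the step of each library, with 100% of values whole within 0.1 read. The limits of 15 scaled reads and 10 times the input were read from the values. Ratios used a pseudocount of 1 read. Genes were given regions within 50 kb of the start site where the table named them as nearest. Shares have Wilson intervals and differences Newcombe intervals (95%). No test across regions was possible with 1 library per depot, and the functions were tested on simulated data.

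Members and gene lists were chosen with earlier results of these data known. Of 573 list entries 1 had no match by gene identifier, 1 repeated a gene under an older symbol and was dropped, and 16 genes stood in several lists. Regions were named by fixed ranks: the 12 strongest by the lower white value, the 8 strongest within 1 kb of a start site, the 8 strongest with 0 BAT reads, the 5 at each end of the eWAT over iWAT ratio with a mean of at least 50, the 3 strongest genes per list, and those nearest each limit. Genes were named as the 12 with most members and no BAT-listed region and the 8 with most members. Some items that these ranks name are not reported here. Other list genes named by their counts of regions alone were chosen after their values were seen. Alternatives were other windows, scalings, pseudocounts, folds and limits on strength.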

Additional observations from a re-analysis of the deposited data

How the results depend on the processing

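No paired analysis was possible because each depot had 1 library, and for the same reason no replicate could be left out. Of the 23021 white-only regions, 11320 had at least 30 scaled reads in both white libraries and 13713 had at most 3 BAT reads. The share with a BAT value at or above the lowest listed one was 34.0% among regions of at least 30 and 55.0% at 50% of that value. The median log2 ratio of white over BAT was 1.93 on the authors' scale, 0.58 centred on the strongest 25%, 1.43 with 0.5 reads added and 1.38 among regions of at least 30. The count past 4-fold was 10821 on the authors' scale, 1970 centred on the strongest 25% and 14391 at 2-fold. At 4-fold 253 regions differed between eWAT and iWAT. Within 100 bp of a start site lay 0.487% and within 5 kb 12.4%, and within 1 kb 3.62% of regions of at least 30 and 2.76% of those under the BAT limit. Genes with a member were 3891 at 10 kb and 4701 for regions of at least 30. A BAT-listed region lay within 50 kb of 60.2%, and within 10 kb of 25.6% of regions of at least 30. Repeats held 14.6% of regions of at least 30 and 18.05% of those under the BAT limit, and introns 45.2% of regions of at least 30. The cause of these shifts was not tested. The other 11 alternatives of these results stayed within the limits set for a change, among them 16, 19 and 20 lists above background. Values within these limits could still shift. With 0.5 reads added the count past 4-fold was 7033, against 5609 with 1 read. For single lists, 39 of 69 values stayed within these limits and 30 did not, 17 of them with the 10 kb window. These values are counts of genes, so they have no direction. Some lists changed sides of the background at 10 kb, where it was 15.2%. Depot-developmental genes fell below it, with 1 of 29 against 14 at 50 kb. Mesothelial (1 of 15), neuronal (1 of 15) and oxidative phosphorylation genes (4 of 48) also fell below, and skeletal muscle genes (3 of 15) rose above. The depth of BAT, where 1 read was worth 2.77 scaled reads, limits every statement on it.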

Other observations

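Genes of 23 lists held white-only regions beyond those described above. The collagen VI chain gene Col6a3 had 5 white-only regions of 8, with 1 BAT-listed. The TGF-β receptor gene Tgfbr1 had 5 of 11, also with 1 BAT-listed. Flt1, a receptor for vascular endothelial growth factor, had 4 of 5 and Creb3l1, a membrane-bound transcription factor of the matrix secretory program, 5 of 7, and neither had a BAT-listed region. Cox6c, a subunit gene of cytochrome c oxidase, had 4 of 7 with no BAT-listed region. The β1-adrenergic receptor gene Adrb1 had 8 regions, of which 0 were white-only and 4 BAT-listed. These genes were chosen after their values were seen, and no test of them was made.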
